A study of Homo sapiens with 6 samples.

Results

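The nuclear genes for mitochondrial DNA maintenance and biogenesis were examined as a set of 10 members, taken by symbol from a count table of 17297 genes, and all 10 were found in it. They are TFAM, TFB1M, TFB2M, POLRMT, POLG, POLG2, SSBP1, NRF1, ESRRA and PPRC1. The rule that gives the members uses symbols and no measured value. RNA-seq had been made of LNCaP cells, a long-established line from a human prostate cancer, as 2 stable puromycin-selected lines, 1 transduced with the empty retroviral plasmid (pBabe-vector) and 1 with wild-type GNA13 cDNA in the same plasmid (pBabe-GNA13). GNA13 encodes Gα13, the alpha subunit of a heterotrimeric G protein, and the question was which genes differ when it is overexpressed. Each line gave 3 biological replicates, cultured for 48 h, and each condition is represented by a single transduced line. Both lines are LNCaP with the genotype given as WT, in the same medium with serum. In each line 1 library carries the tag std, and the others carry the numbers 2 and 3. The pBabe-vector std library is replicate 1. The heading of the pBabe-GNA13 std library also holds the number 2, which another library of that line carries. It was therefore tied to its line only. Values below are listed in the order std, replicate 2, replicate 3.

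Mitochondrial DNA encodes 13 mRNAs of the respiratory chain and ATP synthase together with rRNAs and tRNAs, and everything that copies, packages and reads it is encoded in the nucleus. TFAM coats the mitochondrial genome and bends its promoters, TFB2M opens them, and POLRMT, the mitochondrial RNA polymerase, transcribes from them. TFB1M methylates the small mitochondrial rRNA. POLG and POLG2 are the catalytic and accessory subunits of the mitochondrial DNA polymerase, and SSBP1 covers the single strand exposed during replication. NRF1 and ESRRA are nuclear transcription factors, and PPRC1 is a coactivator of the PGC-1 family, that drive nuclear genes for mitochondrial proteins.

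A binding motif shared by many genes of this kind is that of NRF1. It was searched as GCGCANGCG and its reverse complement CGCNTGCGC in RefSeq promoter stretches of build GRCh38.p14, from 250 bases before to 50 bases after each start site. A stretch was at hand for 9 of the 10 members (all but NRF1), and 6 of these 9 held a match, against 7.52% of 35116 promoter stretches and 9.02% of genes. The matches are shown because they are the sequence feature that most members share. Each line runs 5′ to 3′ on the gene's strand, with the match in capitals and 10 bases on either side. TFB1M and POLRMT held further matches overlapping the ones shown.
TFAM: cgctctcccgCGCCTGCGCcaattccgcc
TFB1M: gcaggacttaGCGCATGCGctctcagcac
TFB2M: ctccgctgttCGCATGCGCaggctctagt
POLRMT: ggcggcgcggGCGCATGCGcaggcgcggg
POLG2: acctccgttgCGCCTGCGCcgtggcctct
ESRRA: tcgtccgggcGCGCAGGCGccgcccgccc
The windows lie at chr10:58385338-58385366 (plus strand, TFAM), chr6:155314598-155314626 (minus strand, TFB1M), chr1:246566259-246566287 (minus strand, TFB2M), chr19:633543-633571 (minus strand, POLRMT), chr17:64497049-64497077 (minus strand, POLG2) and chr11:64305421-64305449 (plus strand, ESRRA). The match began 62 bases before the RefSeq start site in TFAM, 132 in TFB1M, 16 in TFB2M, 24 in POLRMT, 13 in POLG2 and 93 in ESRRA. RefSeq start sites can differ from the Gencode spans given below, and the TFAM match lies inside its Gencode span. Of the other motifs searched on both strands, the ETS-type motif of GABPA (CCGGAAGT) was matched in POLRMT and SSBP1, against 4.14% of promoter stretches, and that of ESRRA (TCAAGGTCA) was matched in 0 members, against 0.353%. A match is a string of letters, and no binding was measured here.

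The members lie on 8 chromosomes. TFAM spans chr10:58385345-58399220 on the plus strand of GRCh38 (Gencode 44) and PPRC1 chr10:102132994-102150333 on the same strand. POLRMT spans chr19:617221-633537 and TFB2M chr1:246540561-246566261, both on the minus strand, and no other annotated gene overlaps any of these 4. The others share sequence with annotated neighbours. TFB1M (chr6:155256134-155314493, minus) overlaps TIAM2 and CLDN20 on the opposite strand, POLG (chr15:89305198-89334861, minus) overlaps FANCI on the opposite strand and POLGARF on its own, and ESRRA (chr11:64305497-64316743, plus) overlaps TRMT112. SSBP1 (chr7:141738334-141787922, plus) overlaps the taste receptor genes TAS2R3 and TAS2R4 and the antisense gene WEE2-AS1, POLG2 (chr17:64477785-64497054, minus) the pseudogene ATP5MFP4, and NRF1 (chr7:129611720-129757082, plus) the rRNA pseudogene RNA5SP244. Whether strand was used in the counting was not stated, so reads from such overlaps cannot be told apart.

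GNA13, the overexpressed gene, checked the labels. It stood at 820 CPM, 886 CPM and 747 CPM in pBabe-GNA13 and at 76.7 CPM, 69.4 CPM and 65.4 CPM in pBabe-vector (TMM-normalized CPM), with edgeR adjusted p = 9.12e-05. Library totals ran from 33002160 to 40628970 counts. All 8 prostate luminal markers listed for LNCaP, KLK3 and KLK2 among them, exceeded 1 CPM in every library, with summed levels of 5380 to 8180 CPM in pBabe-GNA13 and 4510 to 7340 CPM in pBabe-vector. Of 12 markers of other cell types 9 were in the table, and their sum was 52.3 to 88.8 CPM in pBabe-GNA13 and 24.2 to 48.8 CPM in pBabe-vector. The erythroid marker HBB was at 30.3 CPM, 0 CPM and 33.5 CPM in pBabe-GNA13 and at 3.05 CPM, 0 CPM and 3.09 CPM in pBabe-vector. The basal marker KRT5 was likewise at 0 CPM in both libraries of replicate 2. There 3 counts, the floor set for a count of 0, equal 0.0883 CPM and 0.0853 CPM. Of the 9 markers edgeR called 0 without the block, against 0.139% of all genes. With the block it called 5, or 55.6%, against 19.7% of all genes. These 5 were all higher in pBabe-GNA13, and the part of the markers in the results was not tested.

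Between the lines the members differed little. All 10 were expressed, from 10.0 CPM to 169.7 CPM, and 9 of 10 had a lower fitted level in pBabe-GNA13. So did 50.3% of all genes, and 54.0% of those with a mean log2 CPM over 1. The members had a median log2 fold change of −0.09, against −0.00127 over all genes and −0.0149 over those with a mean log2 CPM over 1. When only genes over that level were fitted, the members' median was −0.070. Without the pBabe-GNA13 std library it was −0.040, without pBabe-vector replicate 3 −0.045, and after centring each chromosome −0.057. Under edgeR's quasi-likelihood test with the line as the only term, 0 of 10 were called at an adjusted p under 0.05, and 0 had an unadjusted p under 0.05. Of all 17297 genes 0.139% were called. Since libraries with the same tag or number deviated together, a second fit took the pairs as blocks, and there 1 of 10 members was called, TFAM, which was lower. That fit called 19.7% of all genes, 10.4% as lower, so the share of members called was close to that of all genes in this direction. TFAM was also the only member whose values did not overlap between the lines, which held for 14.1% of all genes. In bulk RNA, fewer cells that express a gene and less of its RNA per cell cannot be told apart.

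**Figure D1:**
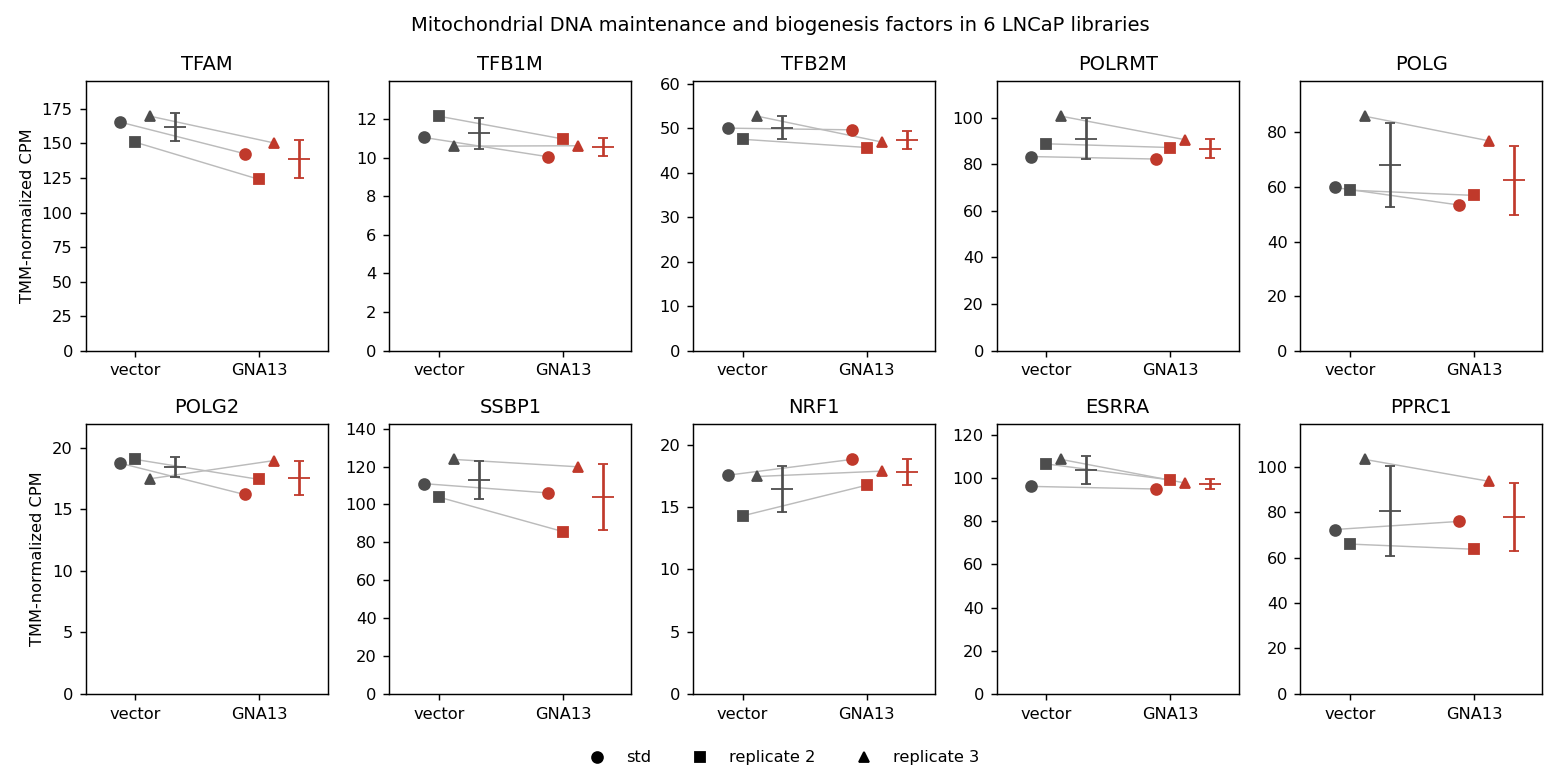
TMM-normalized CPM (vertical axes, from 0) of the 10 members in the 3 pBabe-vector libraries (grey) and the 3 pBabe-GNA13 libraries (red). Symbols mark the std library, replicate 2 and replicate 3, grey lines join libraries of a pair, and bars give mean ± SD (n = 3); only for TFAM do the groups not overlap, and NRF1 alone is higher in pBabe-GNA13 in all pairs.

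TFAM, the packaging and activating factor, was measured at 143 CPM, 124 CPM and 150.3 CPM in pBabe-GNA13 and at 165 CPM, 151 CPM and 169.7 CPM in pBabe-vector. The highest pBabe-GNA13 library, replicate 3, lay just under the lowest pBabe-vector library, replicate 2. The means were 139 ± 13.6 CPM and 162 ± 9.89 CPM (SD, n = 3), and the fitted level was 14.3% lower in pBabe-GNA13. Its log2 fold change was −0.22 (SE 0.11), and edgeR's adjusted p was 0.66 without the block. With the block it was −0.22 (SE 0.05) and edgeR's adjusted p was 0.00223. TFAM was lower in 3 of 3 pairs, by −0.21 (std), −0.28 (replicate 2) and −0.18 (replicate 3) on the log2 scale, and the exact permutation test of 3 against 3 gave p = 0.1, the smallest it can give. The blocked difference was called without any 1 pair. The edgeR adjusted p was 0.00368 without std, 0.0172 without replicate 2 and 0.0126 without replicate 3. A refit without 1 pair, here and below, fits nearly as many terms as it has libraries. Its p therefore leans on the spread estimated over all genes, and for some genes it fell with fewer libraries. In the replicate 2 pair, where TFAM differed most, the markers of other cells were mixed, with HBB and KRT5 at 0 CPM in both libraries, KRT14 (basal) at 4.495 CPM in pBabe-GNA13 against 2.48 CPM, VWF (endothelial) at 30.5 CPM against 20.6 CPM and COL1A1 (stromal) at 17.3 CPM against 23.1 CPM. Their part in the difference of TFAM was not tested. With limma in place of edgeR the blocked adjusted p was 0.0626, and the call was lost.

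TFB2M, the partner of POLRMT at the promoter, stood at 49.6 CPM, 45.6 CPM and 46.9 CPM in pBabe-GNA13 and at 49.98 CPM, 47.5 CPM and 52.7 CPM in pBabe-vector. POLRMT stood at 82.2 CPM, 87.2 CPM and 90.5 CPM against 83.3 CPM, 88.8 CPM and 100.6 CPM. Both were lower in 3 of 3 pairs but overlapped between the lines, with log2 fold changes of −0.08 (SE 0.09) for TFB2M and −0.07 (SE 0.10) for POLRMT. With the block, edgeR's adjusted p was 0.379 for TFB2M and 0.444 for POLRMT. TFB1M, the rRNA methyltransferase, was the least abundant member, at 10.0 CPM, 10.96 CPM and 10.6 CPM in pBabe-GNA13 and at 11.04 CPM, 12.1 CPM and 10.6 CPM in pBabe-vector. Its log2 fold change was −0.10 (SE 0.13), with replicate 3 nearly equal in the lines. The blocked edgeR adjusted p for TFB1M was 0.557.

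Of the replication proteins, POLG stood at 53.4 CPM, 56.9 CPM and 76.9 CPM in pBabe-GNA13 and at 59.9 CPM, 58.9 CPM and 86.0 CPM in pBabe-vector. In both lines replicate 3 stood well above the other libraries, and the spread within a line was larger than the difference between the lines. POLG was lower in 3 of 3 pairs, with a log2 fold change of −0.13 (SE 0.19), and with the block edgeR gave an SE of 0.05 and an adjusted p of 0.0955. Its accessory subunit POLG2 stood at 16.2 CPM, 17.4 CPM and 19.0 CPM against 18.7 CPM, 19.1 CPM and 17.5 CPM, lower in 2 pairs and higher in that of replicate 3. SSBP1 stood at 106 CPM, 85.7 CPM and 119.9 CPM against 111 CPM, 103.9 CPM and 124 CPM. SSBP1 differed most in the replicate 2 pair (−0.28 on the log2 scale, against −0.07 for std and −0.05 for replicate 3). With the block, edgeR's adjusted p was 0.596 for POLG2 and 0.109 for SSBP1.

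NRF1, the transcription factor whose motif is shown above, was the only member with a higher fitted level in pBabe-GNA13. It stood at 18.8 CPM, 16.8 CPM and 17.9 CPM against 17.6 CPM, 14.3 CPM and 17.5 CPM, higher in 3 of 3 pairs with overlapping groups. Its log2 fold change was 0.12 (SE 0.13), with a blocked edgeR adjusted p of 0.345. ESRRA, the estrogen-related receptor alpha, was the steadiest member, at 95.0 CPM, 99.2 CPM and 97.7 CPM against 96.2 CPM, 106.6 CPM and 108.7 CPM, with a log2 fold change of −0.09 (SE 0.09). PPRC1 stood at 75.9 CPM, 63.7 CPM and 93.6 CPM against 72.4 CPM, 65.9 CPM and 103.2 CPM, and its direction was not the same in all pairs. Its log2 fold change was −0.05 (SE 0.20), the smallest of the members. With the block, edgeR's adjusted p was 0.251 for ESRRA and 0.675 for PPRC1. The 6 members with an NRF1 match and the other 3 with a promoter stretch, POLG, SSBP1 and PPRC1, were all lower in the fit. The only higher member, NRF1, had no stretch, so members with and without a match could not be compared by direction.

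**Figure D2:**
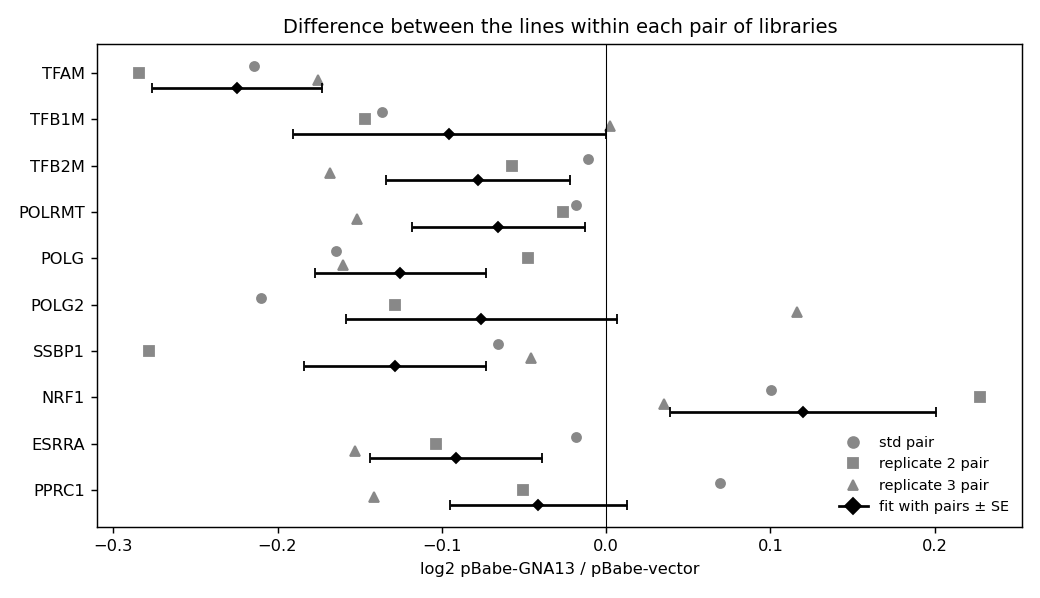
Log2 ratio of pBabe-GNA13 to pBabe-vector (horizontal axis) for each member, within the std pair (circle), the replicate 2 pair (square) and the replicate 3 pair (triangle), with the edgeR estimate from the fit with the pairs ± SE (diamond). TFAM lies at −0.22 with all 3 pairs below 0, NRF1 at 0.12 with all above 0, and the intervals of POLG2 and PPRC1 cross 0.

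Several members varied more between pairs of cultures than between the lines. The block term of edgeR's fit called 5 of 10 members, against 47.4% of all genes, so the share was near that of all genes. The adjusted p was 6.75e-08 for POLG, 7.03e-08 for PPRC1, 0.000265 for SSBP1, 0.0123 for TFAM and 0.0304 for POLRMT. PPRC1 was 1.47-fold higher in replicate 3 than in replicate 2 in pBabe-GNA13 and 1.57-fold higher in pBabe-vector, and POLG 1.35-fold and 1.46-fold. SSBP1 was 1.40-fold and 1.19-fold higher. Replicate 3 thus held the highest level of PPRC1, POLG and SSBP1 in both lines. Without the replicate 3 pair the block term called 0 of 10 members by edgeR, against 18.1% of all genes. It called 4 without the std pair, against 44.8% of all genes, and 4 without the replicate 2 pair, against 35.1%.

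The transcripts of mitochondrial DNA itself, measured in the same libraries, followed a different pattern. The 13 mitochondrial mRNAs made up 1.63%, 5.42% and 5.88% of all counts in pBabe-GNA13 and 2.01%, 5.09% and 5.70% in pBabe-vector. In both lines the std library stood far below the others, whose mean share was 3.46-fold higher in pBabe-GNA13 and 2.69-fold higher in pBabe-vector. The mean share was 4.31% ± 2.33 (SD, n = 3) in pBabe-GNA13 and 4.27% ± 1.98 (SD, n = 3) in pBabe-vector, with p = 1.0 in the exact two-sided permutation test, and it was lower in 1 of 3 pairs. Without both std libraries, pBabe-GNA13 was higher by 0.254 percentage points. The difference of the means took its sign from the libraries used, at −1.09 points without the pBabe-vector std library and 1.38 points without the pBabe-GNA13 std library. The mitochondrial rRNAs and tRNAs had the same pattern, with mean shares in replicates 2 and 3 over those in the std library of 2.91 and 2.54 for rRNA and of 2.76 and 2.43 for tRNA, pBabe-GNA13 first. What the tag std stands for is not given in the sources used here.

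Each of the 13 mitochondrial mRNAs took part, whereas the members did not. The std level over the geometric mean of replicates 2 and 3 was 0.236 (MT-ND5) to 0.319 (MT-ND3) in pBabe-GNA13 and 0.293 (MT-ND5) to 0.382 (MT-CO3) in pBabe-vector. For the members the same quotient ran only from 0.807 (POLG) to 1.09 (NRF1) in pBabe-GNA13 and from 0.841 (POLG) to 1.11 (NRF1) in pBabe-vector. For TFAM it was 1.04 and 1.03, and for POLRMT 0.926 and 0.882. The highest of the 6 libraries exceeded the lowest by 3.43-fold (MT-ND3) to 4.89-fold (MT-ND6) among the mitochondrial mRNAs and by 1.14-fold (ESRRA) to 1.62-fold (PPRC1) among the members. The ranges of the 2 sets did not meet, and the block term of edgeR called all 13 mitochondrial mRNAs.

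**Figure D3:**
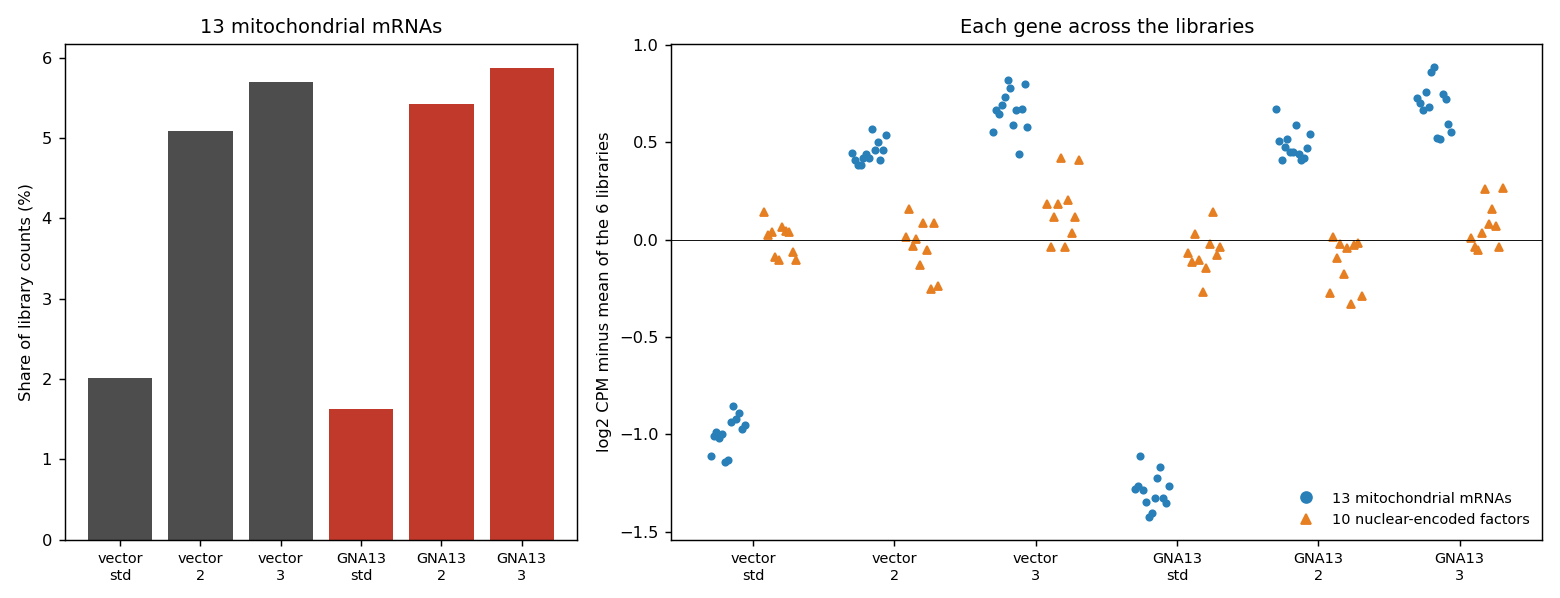
Left, share of library counts (percent, axis from 0) held by the 13 mitochondrial mRNAs in each library, from 1.63% in the pBabe-GNA13 std library to 5.88% in its replicate 3. Right, log2 CPM of each gene minus its mean over the 6 libraries, for the 13 mitochondrial mRNAs (circles) and the 10 members (triangles); the mitochondrial mRNAs drop in both std libraries while the members stay near 0.

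Between the lines, 7 of the 13 mitochondrial mRNAs had lower and 6 higher fitted levels, with log2 fold changes of −0.14 (MT-ATP8) to 0.15 (MT-ND1) and none called by edgeR. None had an unadjusted p under 0.05, and their errors spanned the gap between std and other libraries, as for MT-CO1 (cytochrome c oxidase subunit 1, −0.07, SE 0.55). With the block 2 of 13 were called, or 15.4%, against 19.7% of all genes. Both were lower, MT-CO2 (−0.18, edgeR adjusted p = 0.0182) and MT-ATP8 (−0.19, edgeR adjusted p = 0.0281). MT-CO2 stood at 1558 CPM, 4943 CPM and 5216 CPM against 2015 CPM, 5016 CPM and 5780 CPM, lower in each pair and most so for std. The number called rested on the libraries taken. By edgeR with the block it was 1 without the std pair, 6 without the replicate 2 pair and 3 without the replicate 3 pair. The same refits called 18.9%, 14.7% and 13% of all genes, in that order. With the block, limma, the newer quasi-likelihood method of edgeR and edgeR after centring by chromosome each called 0 of 13. Of all genes these fits called 2.5%, 18.1% and 13.9%, in that order. The smaller rRNA, MT-RNR1, which TFB1M methylates, stood at 497.5 CPM, 1111 CPM and 1467 CPM against 632 CPM, 1215 CPM and 1650.0 CPM, lower in 3 of 3 pairs with overlapping groups. Its log2 fold change was −0.19 (SE 0.44, edgeR adjusted p = 0.99) without the block and −0.21 (SE 0.05, edgeR adjusted p = 0.00305) with it. Without any 1 pair MT-RNR1 stayed called, with edgeR adjusted p of 0.0379 without std, 5.74e-05 without replicate 2 and 0.00939 without replicate 3, whereas limma with the block gave 0.137. The larger rRNA, MT-RNR2, was also lower in 3 of 3 pairs but was not called with the block (log2 −0.11, SE 0.05, edgeR adjusted p = 0.130). MT-ND6, the sole mRNA of the light strand, made up 1.29%, 1.35% and 1.65% of the mitochondrial mRNA counts in pBabe-GNA13 and 1.25%, 1.34% and 1.56% in pBabe-vector (exact permutation p = 0.6, 3 against 3).

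Set against the mitochondrial mRNAs, the members therefore stood higher in the std libraries. TFAM had 9.15, 2.29 and 2.52 CPM per 1000 CPM of mitochondrial mRNA in pBabe-GNA13 and 8.5, 2.85 and 2.90 in pBabe-vector. Over the members, the std ratio exceeded the others by 2.94-fold (POLG) to 3.97-fold (NRF1) in pBabe-GNA13 and by 2.41-fold (POLG) to 3.18-fold (NRF1) in pBabe-vector. For TFAM the lines did not differ in this ratio beyond the spread, with a mean log2 difference of −0.14 and p = 0.6 (exact permutation, 3 against 3), negative in 2 of 3 pairs. In the std pair every member was higher relative to the mitochondrial mRNAs in pBabe-GNA13, from 0.106 (TFAM) to 0.421 (NRF1) on the log2 scale. The summed mitochondrial mRNAs stood at 15576 CPM in that library, against 19450 CPM in the pBabe-vector std library. The level of TFAM itself was lower in pBabe-GNA13 in this pair.

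Per kilobase of merged exon, ESRRA and TFAM were the most abundant members in pBabe-vector, at 33.5 ± 2.16 and 30.7 ± 1.87 CPM per kb (SD, n = 3). TFB2M followed at 28.1 CPM per kb, SSBP1 at 22.7, POLRMT at 18.0, PPRC1 at 13.2, POLG at 8.24, POLG2 at 4.05, NRF1 at 3.99 and TFB1M at 2.74. The ranges of neighbours over the 3 libraries overlapped for ESRRA and TFAM, TFAM and TFB2M, POLRMT and PPRC1, and POLG2 and NRF1. Within every pBabe-vector library, however, TFAM exceeded TFB2M and POLRMT exceeded PPRC1, whereas the order of ESRRA and TFAM and of POLG2 and NRF1 was not the same in all 3. Merged exons include rare long transcripts, which lowers the value of a gene such as SSBP1, with 4975 bases. Among 14059 genes with a mean of at least 1 CPM, those whose log2 CPM over the 6 libraries was most like that of TFAM were RTCB (Pearson's r = 0.997), a subunit of the tRNA ligase, RP11-673C5.1 (0.996) and UTP14A (0.995), a nucleolar processing factor. RTCB stood at 92.4 CPM, 82.9 CPM and 98.6 CPM in pBabe-GNA13 and at 107 CPM, 98.2 CPM and 111 CPM in pBabe-vector. With so few libraries, and the best picked from so many genes, such likeness is a description only.

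The other genes of mitochondrial DNA expression were taken from 4 lists, of which 74 genes were in the table. Their fitted levels were lower for 38 and higher for 36 in pBabe-GNA13, with a median log2 fold change of −0.0020. Without the block edgeR called 0 of 74, and 5 had an unadjusted p under 0.05. With the block it called 11, or 14.9%, against 19.7% of all genes, 5 of them higher and 6 lower. With DESeq2 and the block 5 were called, against 11.7% of all genes tested, and with limma and the block 0, against 2.5%. Without the std pair edgeR with the block called 14, without the replicate 2 pair 4 and without the replicate 3 pair 8. Those refits called 18.9%, 14.7% and 13% of all genes, in that order. The 13 genes that the naming rule took from these lists and that were not called with the block had log2 fold changes of −0.34 to 0.15.

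Among the 17 genes of replication and the nucleoid, next to POLG, POLG2 and SSBP1 in function, edgeR called 0 of 17 with the block. The share over all genes was 19.7%. Of the 17 genes, 7 were lower and 10 higher. The ends of this list were TOP1MT, the mitochondrial topoisomerase, at a log2 fold change of −0.16 (SE 0.12), and RNASEH1, which removes RNA primers, at 0.15 (SE 0.11). Their blocked edgeR adjusted p values were 0.0518 for TOP1MT and 0.0904 for RNASEH1. Of 17 genes of nucleotide supply 2 were called with the block, or 11.8%, against 19.7% of all genes. DGUOK, the mitochondrial deoxyguanosine kinase, stood at 31.1 CPM, 25.9 CPM and 29.8 CPM in pBabe-GNA13 and at 22.7 CPM, 23.2 CPM and 22.3 CPM in pBabe-vector, and was higher (log2 0.35, edgeR adjusted p = 0.000962). SAMHD1, which breaks down deoxynucleotides, stood at 75.3 CPM, 57.5 CPM and 80.2 CPM against 92.7 CPM, 81.4 CPM and 108.6 CPM, and was lower (log2 −0.41, edgeR adjusted p = 2.30e-06). Neither gene overlapped between the lines, which held for 14.1% of all genes. Both stayed called without any 1 pair and under DESeq2 with the block. With limma and the block the adjusted p was 0.1005 for DGUOK and 0.0525 for SAMHD1, and both calls were lost. SAMHD1 lies on chromosome 20, where the median log2 fold change of all genes was −0.21, and after centring by chromosome it came to −0.21 with an edgeR adjusted p of 0.00967.

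Of 24 genes of mitochondrial transcription and RNA processing, which act with TFB1M, TFB2M and POLRMT, 5 were called with the block. That share, 20.8%, was near the 19.7% of all genes. REXO2, an oligoribonuclease, did not overlap between the lines, at 56.7 CPM, 54.5 CPM and 59.2 CPM against 64.0 CPM, 70.3 CPM and 70.1 CPM (log2 −0.26, edgeR adjusted p = 0.000740). The other calls in this list were HSD17B10, a subunit of mitochondrial RNase P, FASTKD5 and SLIRP (listed as C14orf156, and chosen after its values were seen), all lower, and MTERF2 (listed as MTERFD3), which was higher. Their blocked log2 fold changes were −0.19, −0.17, −0.17 and 0.30, with edgeR adjusted p of 0.0182, 0.0251, 0.0414 and 0.0136. Of these 5, DESeq2 with the block called REXO2 only. After centring by chromosome, FASTKD5 on chromosome 20 came to 0.0337 and MTERF2 on chromosome 12 to 0.0090, and neither was called, nor were HSD17B10 and SLIRP. Of these 5, REXO2 was the only call that held without any 1 pair.

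Of 16 biogenesis regulators, the group to which NRF1, ESRRA and PPRC1 belong, 4 were called with the block. The same fit called 19.7% of all genes and 24.3% of those with a mean log2 CPM over 1. The share in this list was thus near that of genes at such levels. NRIP1, a corepressor of nuclear receptors, stood at 112 CPM, 99.8 CPM and 100.4 CPM in pBabe-GNA13 and at 89.0 CPM, 85.3 CPM and 74.9 CPM in pBabe-vector (log2 0.33, edgeR adjusted p = 5.90e-05). PRKAA2, a catalytic subunit of AMP-activated kinase, was higher by 0.39 (edgeR adjusted p = 0.00191) and the corepressor NCOR1 lower, at −0.14 (edgeR adjusted p = 0.0446). ESRRG, a relative of ESRRA, was barely expressed, at 0.830 CPM, 1.06 CPM and 0.727 CPM against 0.262 CPM, 0.354 CPM and 0.436 CPM, and was higher in every library (log2 1.32, SE 0.37, edgeR adjusted p = 0.0118). DESeq2 with the block gave NRIP1 and PRKAA2 and not NCOR1, and it gave no adjusted p for ESRRG. Of these 4, NRIP1 was the only call that held without any 1 pair.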

How the data were processed

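Total RNA of 6 LNCaP cultures, 3 per line, was sequenced. Per the labels and the study's methods, the authors checked reads with FastQC 0.11.7, aligned them with STAR to the Gencode 38 transcriptome and summed them per gene with featureCounts. Some symbols in the table are older ones, and the filter that left 17297 genes was not stated. The values deposited by the authors are raw counts per gene, although the table is named for CPM. All 6 columns were used and 0 were left out.

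Counts were scaled by TMM (factors 0.963 to 1.05). The quasi-likelihood test of edgeR 4.0.16 under R 4.3.3 (glmQLFit, glmQLFTest) was run across the whole table, with the line as term and Benjamini-Hochberg adjustment. CPM are TMM-normalized, and errors are SD over 3 libraries. At these depths 1 count equals 0.0246 to 0.0303 CPM, and this covers counting error only. Exact two-sided permutation tests were run in Python 3.11.15 with SciPy 1.17.1. Tables were handled with pandas 2.3.3 and NumPy 2.4.6, and figures were drawn with matplotlib 3.10.9. Scripts were tested on simulated data.

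Over 12778 genes, deviations from group means correlated (Pearson's r across genes) by 0.659 between the std libraries, 0.807 between those numbered 2 and 0.888 between those numbered 3, and by −0.736 to 0.125 otherwise. The tag and numbers of the column headings were therefore taken as pairs, and the blocked fit is given where it changes a call. The pBabe-GNA13 std library was paired by its tag, although its heading also holds the number 2. Its r with the pBabe-vector library numbered 2 was −0.0306. Alternatives were DESeq2 1.42.0 size factors and test, limma 3.58.1, a mean log2 CPM filter of 1, median or chromosome centring, library sizes without the 33 MT- rows, and left-out libraries or pairs. Blocked fits by other tools and a fit without both std libraries were chosen after seeing the data.

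The members, gene lists and tests were chosen with earlier results of these data known. Genes named are all members, the 13 mitochondrial mRNAs, of each further list up to 3 per direction with the smallest p, GNA13, the fixed marker lists, and the 3 genes most like TFAM. SLIRP, MT-RNR1 and MT-RNR2 fall outside this rule and were named after their values were seen. PPARGC1A and ESRRB were not analysed here, and 1 list gene that the rule names is not reported here. The 13 list genes that the rule names and the blocked fit did not call are given mainly by their range. Mitochondrial reads may be shared with nuclear copies.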

Additional observations from a re-analysis of the deposited data

How the results depend on the processing

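All p-values measure the spread between 3 cultures of 1 line each, and a call by the blocked fit rests on 3 pairs. A refit without 1 pair rests on fewer, and its p leans on the spread over all genes. Under every alternative without the block, 0 members were called, and TFAM kept its sign, at −0.28 to −0.15 without any 1 library. With the replicate block 1 member was called (TFAM), and 2 mitochondrial mRNAs and 11 of the 74 further genes. With the block, DESeq2 called 1, 1 and 5, the newer quasi-likelihood method 1, 0 and 10, library sizes without MT- rows 1, 2 and 9, and chromosome centring 1, 0 and 9. Of all genes tested these fits called 11.7%, 18.1%, 19.2% and 13.9%, in that order. Leaving out libraries or pairs gave 0 to 1 members, 0 to 6 mitochondrial mRNAs, 0 to 14 further genes and, for members called between pairs (5), 0 to 4. Some signs changed, and the cause was not tested. Chromosome centring gave 0.00063 for PPRC1, 0.034 for FASTKD5 and −0.0055 for LRPPRC. Signs of mitochondrial mRNAs depended most on the setting. MT-ND2, MT-ND3, MT-ND4, MT-ND6 and MT-CO3, higher without the block, had −0.041, −0.025, −0.036, −0.039 and −0.010 with the block, −0.041, −0.024, −0.036, −0.039 and −0.010 by DESeq2 with the block, −0.040, −0.024, −0.036, −0.037 and −0.010 by the newer method with the block, −0.041, −0.025, −0.037, −0.041 and −0.010 by limma with or without it, and −0.032, −0.016, −0.028, −0.031 and −0.0022 with the block and library sizes without MT- rows. MT-ND5 came to 0.0020 with library sizes without MT- rows, 0.0040 with median centring, 0.012 with the filter and 0.035 without both std libraries, where MT-ATP6 came to 0.035, MT-ND4L to 0.018 and TK2 to 0.0043. Leaving out a library or pair gave −0.30 to 0.073 for POLG, −0.13 to 0.010 for POLRMT, −0.20 to 0.17 for PPRC1, −0.23 to 0.0012 for SSBP1, −0.0062 to 0.11 for LRPPRC, −0.017 to 0.20 for PNPT1, −0.11 to 0.23 for PRIMPOL, −0.14 to 0.024 for TK2, −0.41 to 0.38 for MT-ATP6, −0.51 to 0.27 for MT-ATP8, −0.42 to 0.34 for MT-CO1, −0.47 to 0.26 for MT-CO2, −0.31 to 0.46 for MT-CO3, −0.40 to 0.35 for MT-CYB, −0.21 to 0.57 for MT-ND1, −0.34 to 0.43 for MT-ND2, −0.35 to 0.38 for MT-ND3, −0.33 to 0.44 for MT-ND4, −0.39 to 0.38 for MT-ND4L, −0.45 to 0.43 for MT-ND5 and −0.42 to 0.47 for MT-ND6.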
